A study of Mus musculus with 18 samples.

Results

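The dual-specificity phosphatase genes examined here were 10 of the 35773 genes in the count tables, chosen by name: Dusp1, Dusp2, Dusp4, Dusp5, Dusp6, Dusp7, Dusp9, Dusp10, Dusp14 and Dusp16. All 10 were found by symbol, and all 10 had at least 10 counts in at least 3 of the 18 samples, so each was tested in every comparison. The samples were mouse pluripotent stem cells, labelled wild type and of the 129S2/SvPasCrl strain, with 3 replicates in each of 6 groups. ESCs were naive embryonic stem cells in 2i/LIF, a medium that holds a MEK inhibitor. AFSCs were primed cells grown in N2B27 with activin A and bFGF. ASCs, the advanced pluripotent stem cells, were derived from AFSCs in ABCL medium, that is N2B27 with activin A, BMP4, the GSK3 inhibitor CHIR99021 and LIF. ESC-ASCs were ESCs converted to the ASC state in ABCL. EpiLCs were epiblast-like cells and EpiSCs were epiblast stem cells. The methods of the study describe derivation from blastocysts of a mixed background with GFP or LacZ reporters, which differs from the strain label. The study calls its replicates biological, while no label says whether they came from separate cultures, so the p-values below measure the spread between these samples.

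Dual-specificity phosphatases of this family remove phosphate from the threonine and the tyrosine of the activation loop of MAP kinases, and so switch ERK, JNK and p38 off. Several of them are themselves induced by ERK activity and form a negative feedback loop. Dusp1, Dusp2, Dusp4 and Dusp5 encode inducible phosphatases of the nucleus. Dusp6, Dusp7 and Dusp9 encode cytoplasmic enzymes that act mainly on ERK. Dusp10 and Dusp16 act mainly on JNK and p38, and Dusp14 encodes a small atypical enzyme without the kinase-binding domain of the others. In mouse embryonic stem cells, FGF signalling through ERK is known to promote exit from the naive state, which is why 2i/LIF inhibits MEK.

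The study's text relates Dusp2 and Dusp7 to the transcription factor MYC, which binds the E-box. Because of this, and because inducible genes carry short regulatory motifs near their start, the stretch from 250 to 51 bases before the RefSeq start (GRCm38.p6) is printed for Dusp2 and Dusp7 and for the 2 nuclear members with other motif matches, Dusp1 and Dusp5. Capitals mark matches on either strand to the motifs named afterwards, and each line reads 5′ to 3′ along the gene's strand.
Dusp1: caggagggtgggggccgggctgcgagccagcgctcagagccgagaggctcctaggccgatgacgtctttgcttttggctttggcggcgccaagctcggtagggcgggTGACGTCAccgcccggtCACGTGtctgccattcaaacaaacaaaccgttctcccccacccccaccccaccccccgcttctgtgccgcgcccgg
Dusp2: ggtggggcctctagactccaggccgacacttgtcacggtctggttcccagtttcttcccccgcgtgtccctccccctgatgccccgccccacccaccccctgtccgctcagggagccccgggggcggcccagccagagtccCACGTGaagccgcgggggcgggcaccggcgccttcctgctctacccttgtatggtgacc
Dusp7: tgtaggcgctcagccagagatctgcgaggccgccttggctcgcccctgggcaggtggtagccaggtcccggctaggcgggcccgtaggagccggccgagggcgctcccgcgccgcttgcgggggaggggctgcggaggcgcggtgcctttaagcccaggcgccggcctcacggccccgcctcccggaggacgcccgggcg
Dusp5: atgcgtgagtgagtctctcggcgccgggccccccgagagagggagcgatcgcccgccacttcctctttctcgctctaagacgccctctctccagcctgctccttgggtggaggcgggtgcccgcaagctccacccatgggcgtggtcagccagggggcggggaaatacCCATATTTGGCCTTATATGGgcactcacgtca

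These stretches lie at chr17:26508523-26508722 on the minus strand for Dusp1, and on the plus strand at chr2:127335909-127336108 for Dusp2, chr9:106368382-106368581 for Dusp7 and chr19:53528895-53529094 for Dusp5. In the whole RefSeq window of 300 bases, from 250 before to 50 after the start, the E-box CACGTG occurred in Dusp1 (first base 126 bases before the start) and Dusp2 (109 bases before), and in 7.15% of all 32851 windows. It did not occur in the window of Dusp7. The cAMP response element TGACGTCA occurred in Dusp1 (143 bases before the start) and in 1.79% of windows. A CArG box, the motif of serum response factor, occurred at 2 adjoining places in Dusp5 (82 and 72 bases before the start) and in 1.63% of windows. In Dusp14 the ETS core CCGGAA (14.9% of windows) and the STAT motif TTCNNNGAA (8.30%) occurred. The AP-1 motif TGANTCA (7.81% of windows), the TCF motif CTTTGAN (16%), TATAAA (13.6%) and the palindromic SMAD motif GTCTAGAC (0.213%) had no match in the windows of the 8 members that were in the RefSeq table. Dusp4 and Dusp9 were the other 2 members. All motifs were searched on both strands. The match of a motif is only a description of these letters. The 8 windows were rich in GC, at 57.3% to 78.7% with a median of 67.8%, against a median of 52.7% over all windows.

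Depth ranged from 4961934 to 9906473 counts per sample in the 5 groups other than ESC-ASCs and from 17813619 to 18071600 in ESC-ASCs. The tables of the ESC-ASCs also carry another library name and come from another counting run, so this difference cannot be told apart from the cell type. The sums of naive and of formative or primed markers followed the labels. The summed level of 8 naive markers was 6400 to 7060 normalized counts per kb in ESCs, 4960 to 6280 in ASCs and 3500 to 3830 in ESC-ASCs, and at most 246 in the other groups. That of 6 formative or primed markers was 2830 to 3060 in EpiSCs, 1570 to 1860 in EpiLCs and 1240 to 1690 in AFSCs. It was at most 285 in ESCs, ESC-ASCs and ASCs. Single genes of this list went the other way in EpiLCs. T had its lowest mean there, at 5.68, against 20.8 in ESCs and 26.85 in ASCs. Eomes was at 12.5 in EpiLCs, 21.55 in ASCs and 19.7 in ESC-ASCs. The 6 endoderm markers summed to 213 to 228 in EpiSCs, 92.1 to 114 in AFSCs and at most 23.9 in the other groups. Most of this was Foxa2, with means of 153 in EpiSCs and 90.5 in AFSCs. Sox17 and Gata6 were at 34.6 and 26.5 in EpiSCs but at 1.51 and 2.39 in AFSCs. Gata4 went the other way, with its highest mean in ESC-ASCs, at 13.1, and its lowest in AFSCs, at 0.41 (2, 0 and 2 counts). The study reports expression of Gata4 and Gata6 in AFSCs by RT-PCR. The 5 trophoblast markers summed to 362 to 370 in ESCs, 247 to 316 in ASCs, 136 to 155 in ESC-ASCs and at most 28.9 elsewhere. Most of this was Tfap2c, with means of 271, 190 and 145 in these groups, and Cdx2, with means of 94.9, 51.1 and 0.37. The list did not move as a set: Elf5 had at most 2 counts in any sample, and Gcm1 had its highest mean in EpiLCs, at 7.34. The 7 fibroblast feeder markers summed to 17.0 to 126, with Col3a1, Postn and Lum at 0 counts in all ESC-ASC samples and Lum and Dcn in all EpiSC samples. In ESCs they summed to 41.8 to 101, with Col3a1 and Lum at their highest means, 11.22 and 5.439. ESC replicate 1 had Col1a1 at 29.4, Col3a1 at 17.85, Lum at 11.39 and Dcn at 25.51. Each of these genes was lower in ESC replicates 2 and 3. In EpiLCs the feeder markers summed to 111 to 126, with Dcn at a mean of 64.6 and Thy1 at 43.9. In ASCs they summed to 75.3 to 117, with Col1a1 at its highest mean, 56.4. In ESC-ASCs they summed to 50.8 to 60.7, with Thy1 at its highest mean, 53.4. The part of other cells in the results below was not tested. The replicate 1 libraries of ESCs, EpiLCs and AFSCs deviated from their groups in the same direction (correlations of 0.346 to 0.393 across genes), and each member's call that changed without them is given beside that gene.

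**Figure D1:**
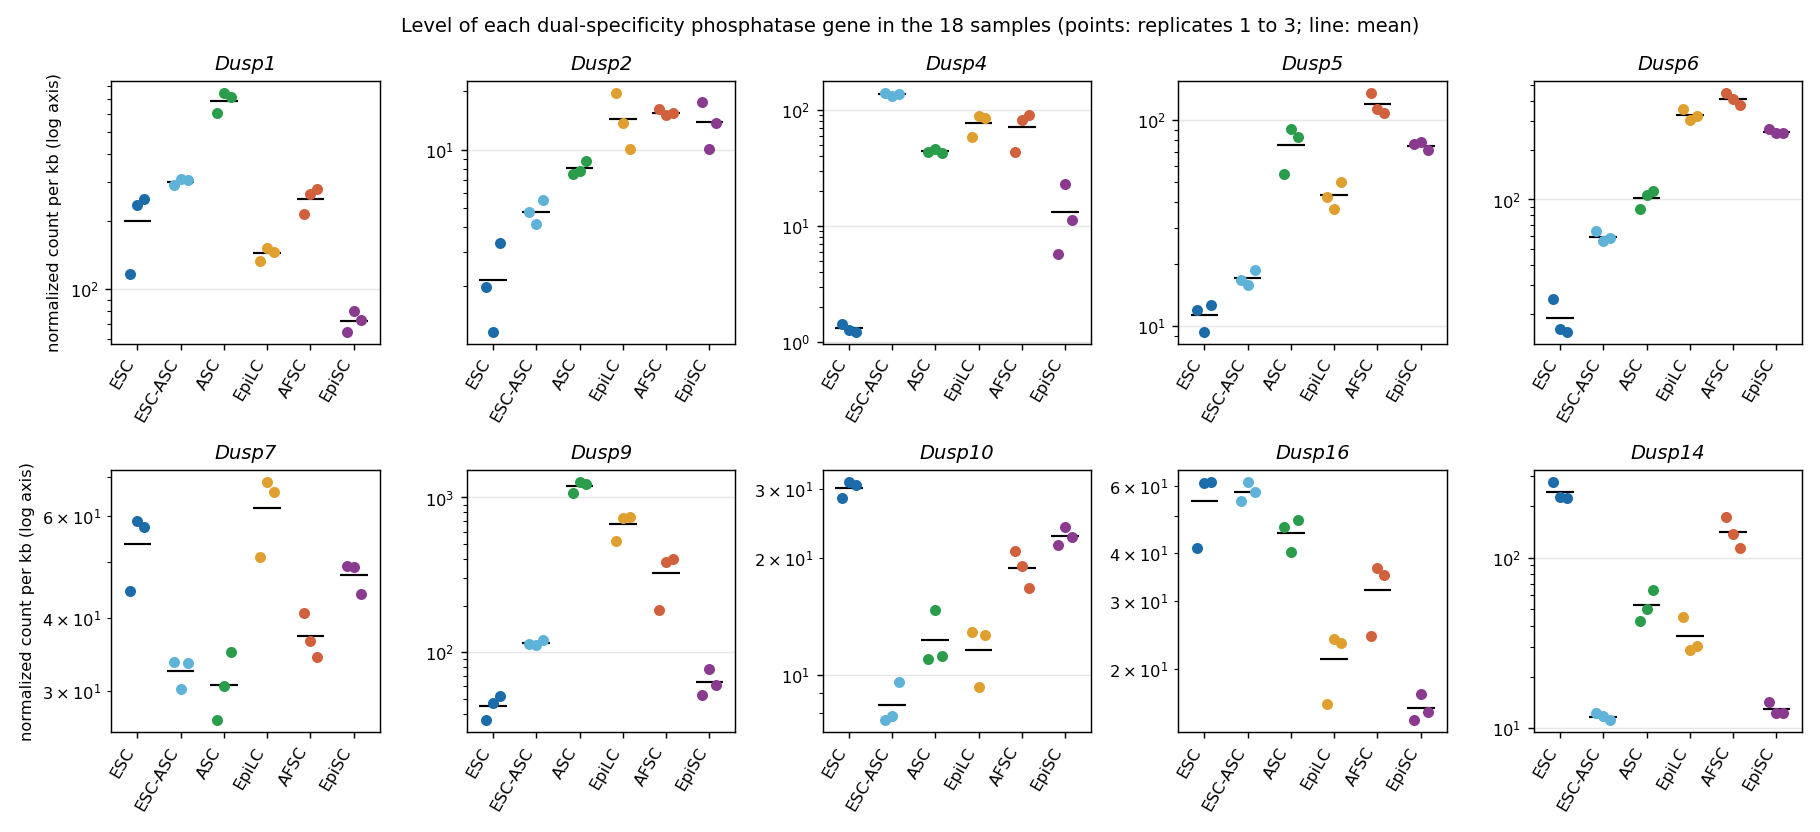
Level of each of the 10 members in normalized counts per kb (log axis) in the 6 groups, with 1 point per replicate and a line at the group mean. Dusp4, Dusp5, Dusp6, Dusp2 and Dusp9 have their lowest mean in ESCs, whereas Dusp14 and Dusp10 have their highest mean there.

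Levels are given as counts divided by the DESeq2 size factor of the sample and by exonic length in kb, so that they can be compared between genes. The summed level of the 10 genes was 661 ± 66.1 in ESCs, 743 ± 10.7 in ESC-ASCs, 2245 ± 212 in ASCs, 1407 ± 131 in EpiLCs, 597 ± 26.9 in EpiSCs and 1426 ± 105 in AFSCs (mean ± SD of 3 samples). ASCs thus held the highest sum, with no overlap of its samples (2003 to 2395) with any other group. The gene with the highest mean share differed between groups. It was Dusp14 in ESCs (37.3% ± 8.93 of the sum), Dusp1 in ESC-ASCs (40.4% ± 1.19), Dusp9 in ASCs (52.8% ± 0.770) and EpiLCs (47.3% ± 5.12), and Dusp6 in AFSCs (29.1% ± 4.54) and EpiSCs (43.5% ± 2.52). The lead of Dusp14 in ESCs rests on replicate 1, at 47.5% against 19.9% for Dusp1, since in replicates 2 and 3 Dusp14 was at 32.9% and 31.3% and Dusp1 at 34.2% and 35.6%. In AFSC replicate 3 Dusp9, at 27.3%, was above Dusp6, at 25.7%. Together the 3 cytoplasmic ERK phosphatases made up 17.8% ± 0.173 of the sum in ESCs, 27.7% ± 0.952 in ESC-ASCs, 58.7% ± 0.509 in ASCs, 75.3% ± 1.21 in EpiLCs, 62.1% ± 1.06 in EpiSCs and 54.1% ± 2.08 in AFSCs. The groups other than ESCs and ESC-ASCs thus had more than 50% of the summed level in these 3 genes.

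**Figure D2:**
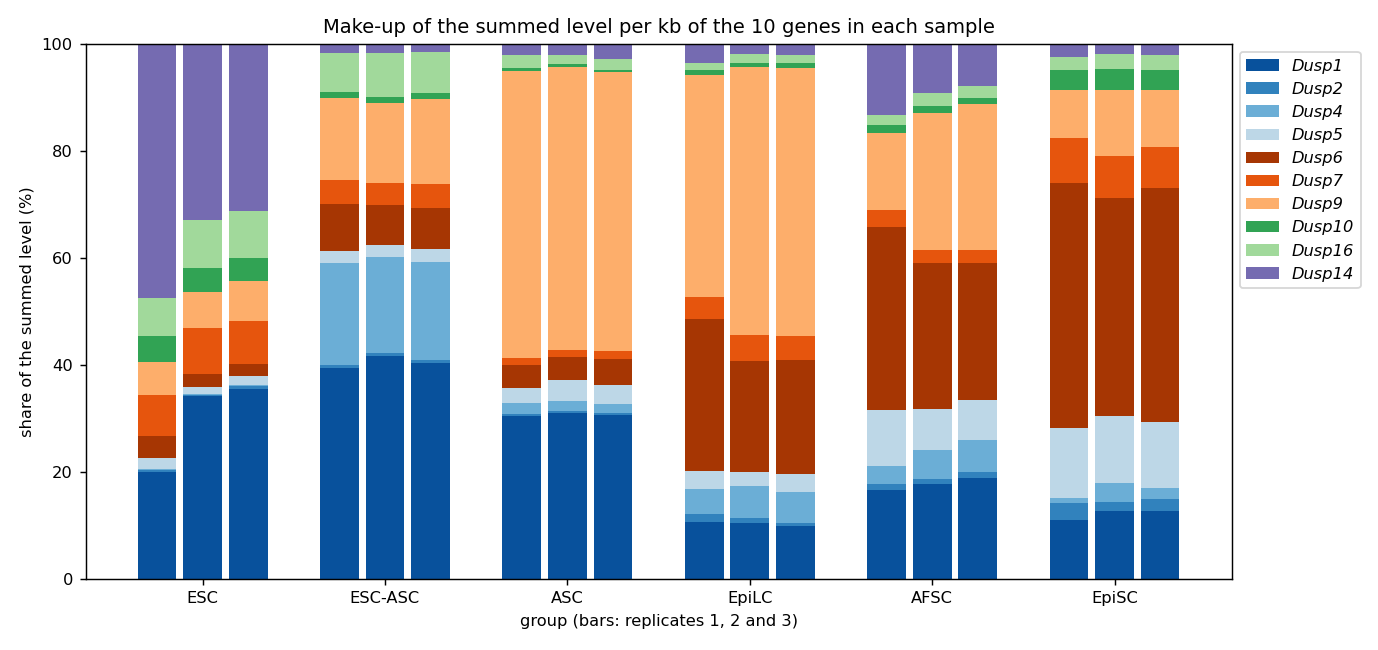
Share of each gene in the summed level per kb of the 10 genes (%), with 1 bar per replicate of each group. Blue tones are nuclear members, orange tones the cytoplasmic ERK phosphatases, green tones Dusp10 and Dusp16, and purple Dusp14, which holds 37.3% of the sum in ESCs and 1.58% in ESC-ASCs.

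Groups were compared with edgeR's quasi-likelihood test over 16901 genes. A gene is called higher or lower where its Benjamini-Hochberg adjusted p was under 0.05 and its log2 fold change was beyond 1 in size, and "rose" and "fell" are used for called genes. The 5 comparisons with ESCs share the 3 ESC samples. In ASCs against ESCs, 6 of 10 members were higher, while 18.5% of all tested genes were, and 2 were lower, while 7.26% of all genes were. In ESC-ASCs against ESCs, 4 members were higher (19.3% of all genes) and 2 lower (17.1%). In EpiLCs, 5 were higher (18%) and 3 lower (15.9%). In AFSCs, 5 were higher (19.9%) and 0 lower (19.6%), and 4 members (Dusp7, Dusp10, Dusp14 and Dusp16) had a negative change with no overlap of samples and an adjusted p of 0.00111 to 0.00775 in edgeR, so that only the limit on the fold kept them from a call. DESeq2 also called 0, and in both tools 4 had an unadjusted p under 0.05. In EpiSCs, 4 were higher (19%) and 3 lower (22%). The median log2 fold change of the 10 members was 1.78 in ASCs, 0.56 in ESC-ASCs, 1.07 in EpiLCs, 0.14 in EpiSCs and 1.55 in AFSCs, and that of all tested genes was between -0.04 and 0.06. As this is RNA of bulk cultures, fewer cells that express a gene and less RNA per cell cannot be told apart.

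**Figure D3:**
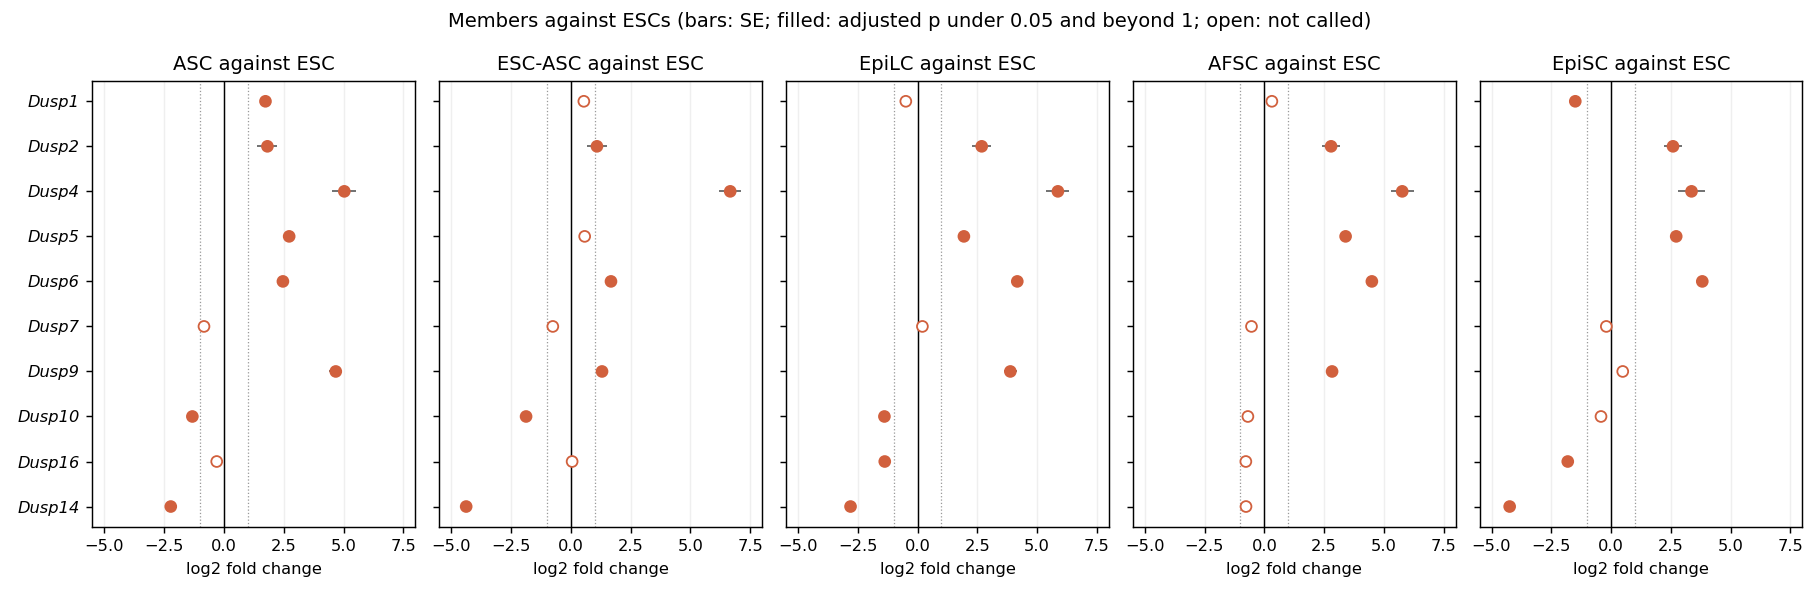
Log2 fold change of the 10 members against ESCs from edgeR, with SE bars, in 5 panels for ASCs, ESC-ASCs, EpiLCs, AFSCs and EpiSCs. Filled points passed an adjusted p under 0.05 with a change beyond 1 (dotted lines). Dusp4 lies at 3.36 to 6.67 and Dusp6 at 1.68 to 4.50.

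Dusp6, a cytoplasmic phosphatase selective for ERK and a usual transcriptional readout of FGF signalling (chromosome 10, 99263231 to 99267488, plus strand, GRCm38), rose in every group relative to ESCs. Its normalized count per kb was 24.6, 16.2 and 15.6 in ESCs, 63.8, 55.9 and 57.9 in ESC-ASCs, 88.0, 106 and 113 in ASCs, 358, 306 and 321 in EpiLCs, 447, 409.5 and 379 in AFSCs, and 268, 256 and 253 in EpiSCs. The 6 groups were fully separated in this order of means, ESCs, ESC-ASCs, ASCs, EpiSCs, EpiLCs and AFSCs, with no overlap between neighbours. The log2 fold change against ESCs was 1.68 ± 0.159 (SE) in ESC-ASCs (adjusted p = 4.19e-08), 2.46 ± 0.161 in ASCs (adjusted p = 8.95e-10), 4.17 ± 0.161 in EpiLCs (adjusted p = 1.65e-13), 4.50 ± 0.163 in AFSCs (adjusted p = 4.19e-14) and 3.81 ± 0.161 in EpiSCs (adjusted p = 2.37e-13; edgeR, Benjamini-Hochberg). The groups in ABCL thus lay between ESCs and the groups with the highest levels. Between ASCs and the AFSCs from which they were derived, Dusp6 was lower by 4.09-fold (log2 fold change -2.03 ± 0.136, adjusted p = 2.77e-10).

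Dusp9, the X-linked member (chromosome X, 73639419 to 73643514, plus strand), encodes another cytoplasmic ERK phosphatase and was the most abundant member in ASCs. Its level was 36.2, 46.6 and 52.5 in ESCs, 113, 111 and 119 in ESC-ASCs, 1074, 1265 and 1217 in ASCs, 520.4, 737 and 752 in EpiLCs, 187, 383 and 402 in AFSCs, and 52.5, 78.3 and 61.4 in EpiSCs. The samples of neighbouring groups did not overlap in the order ASCs, EpiLCs, AFSCs, ESC-ASCs, EpiSCs and ESCs, apart from near equal values of 52.5 in the highest ESC and the lowest EpiSC sample. ASCs held 25.5-fold more Dusp9 than ESCs (log2 fold change 4.67 ± 0.266, adjusted p = 1.91e-10) and 3.58-fold more than AFSCs (1.84 ± 0.228, adjusted p = 1.17e-06). ESC-ASCs held 2.48-fold more than ESCs (1.31 ± 0.246, adjusted p = 0.00015) and 10.3-fold less than ASCs (-3.37 ± 0.241, adjusted p = 3.28e-09). Among cells outside ABCL, Dusp9 rose in EpiLCs by 14.7-fold (3.88 ± 0.259, adjusted p = 2.72e-10) and in AFSCs by 7.12-fold (2.83 ± 0.252, adjusted p = 1.12e-08) relative to ESCs. In EpiSCs its log2 fold change was 0.49 ± 0.253 (adjusted p = 0.104; edgeR, Benjamini-Hochberg), which did not pass. Without replicate 1 of ESCs, EpiLCs and AFSCs together it was 0.37 (adjusted p = 0.043; edgeR), under the limit on the fold.

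The replicate 1 samples were the lowest of the ESCs, EpiLCs and AFSCs in Dusp9. Without replicate 1 of ESCs its log2 fold change in ASCs against ESCs was 4.55, and without replicate 1 of AFSCs that in ASCs against AFSCs was 1.57, and both stayed past the threshold. X-linked genes as a class also moved with ASCs. The median log2 fold change of 641 X-linked genes minus that of 16212 autosomal genes was 1.03 in ASCs against ESCs, 0.85 in ASCs against AFSCs and -0.89 in ESC-ASCs against ASCs, and between -0.05 and 0.08 in the comparisons that include neither ASCs nor the ABCL difference. The log2 fold changes of Dusp9 in the same comparisons were 4.67, 1.84 and -3.37. Xist, which coats the inactive X, had levels of 15.99 to 33.8 in ASCs, 142 to 291 in AFSCs, 133 to 144 in EpiSCs and at most 10.8 in ESCs, EpiLCs and ESC-ASCs. The part of the X chromosome in the changes of Dusp9 was not tested.

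Dusp7, the third cytoplasmic ERK phosphatase (chromosome 9, 106368632 to 106375724, plus strand), varied least of the 10, by 2.01-fold between its highest and its lowest group mean. Its level ranged from 44.6 to 59.0 in ESCs, 30.3 to 33.6 in ESC-ASCs, 26.7 to 35.0 in ASCs, 51.0 to 68.8 in EpiLCs, 34.3 to 40.9 in AFSCs and 44.1 to 49.3 in EpiSCs. EpiLCs, ESCs and EpiSCs overlapped with their neighbours in the order of means, and so did ESC-ASCs and ASCs. No comparison called it. The log2 fold change was nevertheless negative with an adjusted p under 0.05 in ASCs (-0.84 ± 0.163, adjusted p = 0.000358) and ESC-ASCs (-0.75 ± 0.157, adjusted p = 0.000434) relative to ESCs (edgeR, Benjamini-Hochberg), and no sample of either ABCL group reached the lowest ESC sample.

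Dusp4, an inducible nuclear phosphatase of ERK and JNK (chromosome 8, 34807297 to 34819894, plus strand), had the widest range of the 10, with 104.5-fold between ESC-ASCs and ESCs. Its level was 1.44, 1.27 and 1.22 in ESCs, 140.4, 132 and 138 in ESC-ASCs, 43.7, 46.2 and 42.8 in ASCs, 59.0, 88.1 and 85.1 in EpiLCs, 43.7, 82.4 and 90.0 in AFSCs, and 5.75, 22.8 and 11.2 in EpiSCs. ESC-ASCs lay above all other samples and ESCs below all others. EpiLCs and AFSCs overlapped, and AFSC replicate 1 lay within the range of ASCs.

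The ESC values of Dusp4 rest on 2, 3 and 3 counts. The ratio of summed counts to ESCs, with a 95% interval for counting error only, was 106 (53.8 to 246) in ESC-ASCs, 60.9 (30.7 to 142) in EpiLCs, 57.4 (28.9 to 134) in AFSCs, 34.3 (17.2 to 80.2) in ASCs and 11.1 (5.42 to 26.2) in EpiSCs. All 5 lower bounds lay above 5-fold. In edgeR the log2 fold change was 6.67 ± 0.465 in ESC-ASCs (adjusted p = 8.34e-10), 5.03 ± 0.502 in ASCs (adjusted p = 1.93e-07) and 3.36 ± 0.572 in EpiSCs (adjusted p = 4.39e-05). ESC-ASCs held 3.11-fold more Dusp4 than ASCs (1.64 ± 0.282, adjusted p = 0.000102), the only member called higher in that comparison. In EpiSCs, Dusp4 was 5.68-fold lower than in EpiLCs (-2.51 ± 0.318, adjusted p = 2.4e-06) and 5.29-fold lower than in AFSCs (-2.40 ± 0.319, adjusted p = 6.98e-06).

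Dusp5, a nuclear phosphatase specific for ERK (chromosome 19, 53529109 to 53542431, plus strand) and the gene with the CArG boxes printed above, had its lowest level in ESCs and its highest in AFSCs. Its level was 11.9, 9.41 and 12.6 in ESCs, 16.8, 15.8 and 18.7 in ESC-ASCs, 55.0, 90.3 and 82.9 in ASCs, 42.5, 37.2 and 50.2 in EpiLCs, 136, 113 and 109 in AFSCs, and 76.4, 78.0 and 71.4 in EpiSCs. The ranges of ASCs and EpiSCs overlapped, and all other neighbours were separated. Dusp5 rose relative to ESCs by 6.61-fold in ASCs (2.73 ± 0.212, adjusted p = 8.51e-09), 3.83-fold in EpiLCs (1.94 ± 0.217, adjusted p = 3.27e-07), 10.5-fold in AFSCs (3.40 ± 0.211, adjusted p = 6.19e-11) and 6.60-fold in EpiSCs (2.72 ± 0.212, adjusted p = 1.4e-09). In ESC-ASCs the log2 fold change was 0.58 ± 0.221 (adjusted p = 0.0295), under the threshold, and ESC-ASCs held 4.42-fold less Dusp5 than ASCs (-2.14 ± 0.183, adjusted p = 2.78e-08; edgeR, Benjamini-Hochberg).

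Dusp1, an immediate early gene whose product acts on p38, JNK and ERK (chromosome 17, 26505590 to 26508519, minus strand), was highest in ASCs. Its level was 117, 236 and 252 in ESCs, 290.0, 308 and 304 in ESC-ASCs, 608, 744 and 714 in ASCs, 133, 153 and 147 in EpiLCs, 216, 264 and 278 in AFSCs, and 64.7, 79.7 and 72.9 in EpiSCs. All ASC samples lay above all others and all EpiSC samples below all others, whereas ESCs overlapped with both AFSCs and EpiLCs. In ASCs, Dusp1 was 3.33-fold higher than in ESCs (1.73 ± 0.201, adjusted p = 1.23e-06) and 2.67-fold higher than in AFSCs (1.42 ± 0.199, adjusted p = 5.3e-06). In ESC-ASCs it was 2.28-fold lower than in ASCs (-1.19 ± 0.196, adjusted p = 6.31e-05). ESC replicate 1, the shallowest library, set much of the spread in ESCs: without it the log2 fold change in ASCs was 1.46 and that in ESC-ASCs moved from 0.55 ± 0.197 (adjusted p = 0.0224) to 0.28 (adjusted p = 0.0929; edgeR, Benjamini-Hochberg). In EpiSCs, Dusp1 fell against ESCs (-1.497 ± 0.208, adjusted p = 3.95e-06) and against AFSCs (-1.81 ± 0.209, adjusted p = 1.2e-06).

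Dusp2, a nuclear phosphatase known from activated lymphocytes (chromosome 2, 127336159 to 127338376, plus strand), was the least abundant member in ASCs, ESC-ASCs and AFSCs and had at most 34 counts in any sample. Its level was 1.97, 1.16 and 3.34 in ESCs (2, 2 and 6 counts), 4.79, 4.15 and 5.52 in ESC-ASCs, 7.54, 7.78 and 8.76 in ASCs, 19.6, 13.7 and 10.2 in EpiLCs, 16.1, 15.03 and 15.5 in AFSCs, and 17.7, 10.1 and 13.8 in EpiSCs. The last 3 groups overlapped with each other and lay above ASCs, which lay above ESC-ASCs, which lay above ESCs. Dusp2 rose against ESCs in ASCs (1.82 ± 0.421, adjusted p = 0.00154), EpiLCs (2.68 ± 0.386, adjusted p = 8.21e-06), AFSCs (2.79 ± 0.387, adjusted p = 4.05e-06) and EpiSCs (2.59 ± 0.390, adjusted p = 1.04e-05). The ratio of summed counts was 3.64 in ASCs with a counting interval of 1.81 to 8.09, and 7.04 (3.64 to 15.2) in AFSCs. In ESC-ASCs its log2 fold change was 1.09 ± 0.421 (adjusted p = 0.0313; edgeR, Benjamini-Hochberg), and this call was lost in 8 of 14 alternatives, among them DESeq2 (adjusted p = 0.0671), the fit without the 3 replicate 1 libraries (1.06, adjusted p = 0.0557), the ESC-ASC counts thinned to the depth of the other samples (0.89, adjusted p = 0.13), and the fits without ESC replicate 2 (0.75, adjusted p = 0.202) and without ESC replicate 1, ESC-ASC replicate 1 or ESC-ASC replicate 3 (adjusted p = 0.0502 to 0.0759).

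Myc is given beside Dusp2 and Dusp7, which the study's text names as phosphatases that MYC may activate. The level of Myc was 8.54, 10.1 and 7.26 in ESCs, 7.12, 3.35 and 4.36 in ESC-ASCs, 37.8, 58.5 and 65.4 in ASCs, 234, 208 and 210.0 in EpiLCs, 218, 262 and 202 in AFSCs, and 127, 103 and 129 in EpiSCs. Myc and Dusp2 were therefore both higher in ASCs than in ESCs, and both higher again in EpiLCs, AFSCs and EpiSCs. The log2 fold change of Myc in ASCs was 2.61 ± 0.257 (adjusted p = 1.57e-07) relative to ESCs and -2.10 ± 0.198 (adjusted p = 3.31e-08) relative to AFSCs (edgeR, Benjamini-Hochberg). In ESC-ASCs relative to ESCs, Myc was at -0.82 ± 0.305 (adjusted p = 0.0271), opposite in sign to Dusp2 at 1.09. Dusp7 was lower in ASCs than in ESCs, opposite in sign to Myc. Over the 18 samples Pearson's r of log2 levels with Myc was 0.843 for Dusp2, 0.270 for Dusp7 and 0.897 for Dusp6. These correlations are descriptions over samples that fall into 6 groups.

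**Figure D4:**
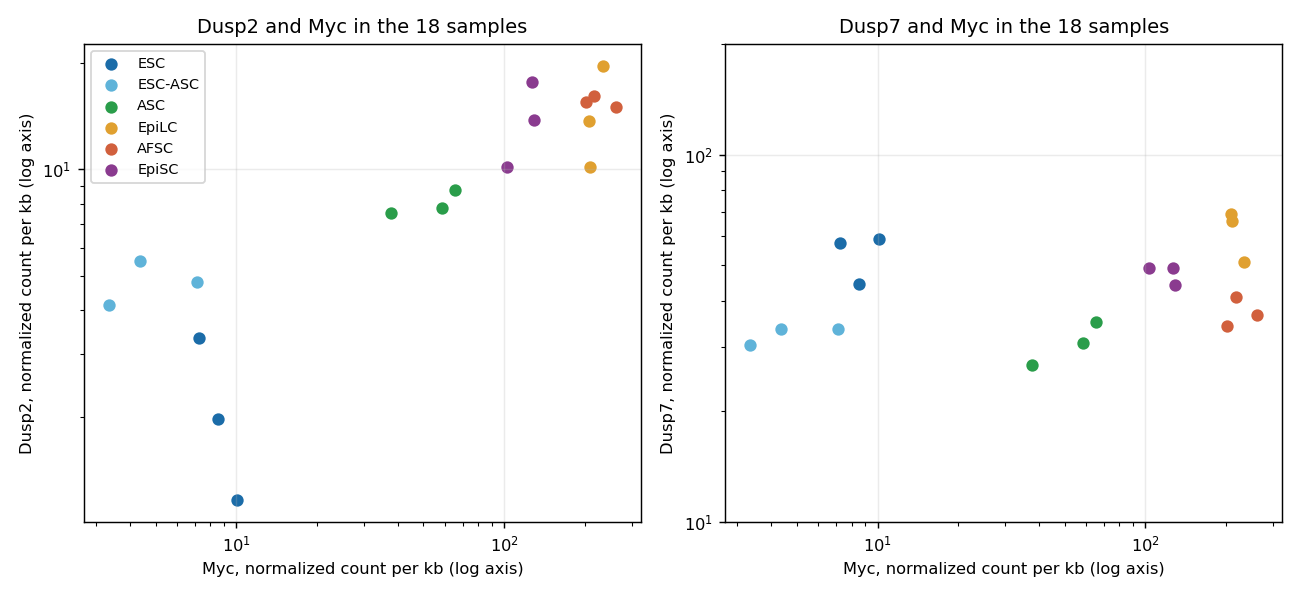
Levels of Dusp2 (left) and Dusp7 (right) against the level of Myc in the 18 samples, in normalized counts per kb on log axes, with 1 color per group. The EpiLC, AFSC and EpiSC samples, with the highest Myc, have Dusp2 between 10.1 and 19.6, whereas Dusp7 stays between 26.7 and 68.8 along the whole range of Myc.

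Dusp14 (chromosome 11, 84048041 to 84069261, minus strand), the small atypical member, was highest in ESCs, where Dusp6 had its lowest level. Its level was 278, 227 and 222 in ESCs, 12.2, 11.8 and 11.1 in ESC-ASCs, 42.7, 50.2 and 64.3 in ASCs, 45.1, 28.6 and 30.3 in EpiLCs, 173, 138 and 114 in AFSCs, and 14.2, 12.2 and 12.3 in EpiSCs. All ESC samples lay above all others, AFSCs followed, and the lowest values were in ESC-ASCs and EpiSCs. Relative to ESCs, Dusp14 fell 20.7-fold in ESC-ASCs (-4.37 ± 0.211, adjusted p = 6.76e-12), 18.9-fold in EpiSCs (-4.24 ± 0.222, adjusted p = 4.72e-12), 6.97-fold in EpiLCs (-2.80 ± 0.198, adjusted p = 6.03e-10) and 4.68-fold in ASCs (-2.23 ± 0.191, adjusted p = 2.86e-08). In AFSCs its log2 fold change was -0.77 ± 0.180 (adjusted p = 0.00111; edgeR, Benjamini-Hochberg), smaller than the threshold. ESC-ASCs and ASCs shared a medium but differed by 4.43-fold in this gene (-2.15 ± 0.211, adjusted p = 1.47e-07).

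The pair directed at JNK and p38 moved less. Dusp10 (chromosome 1, 184013302 to 184075636, plus strand) ranged from 28.5 to 31.4 in ESCs, 21.6 to 24.1 in EpiSCs, 16.7 to 20.8 in AFSCs, 11 to 14.7 in ASCs, 9.30 to 12.9 in EpiLCs and 7.64 to 9.59 in ESC-ASCs. ESCs were above all other groups, and EpiLCs overlapped with both ASCs and ESC-ASCs. Dusp10 fell against ESCs in ASCs (-1.32 ± 0.189, adjusted p = 1.43e-05), ESC-ASCs (-1.87 ± 0.183, adjusted p = 6.48e-08) and EpiLCs (-1.38 ± 0.190, adjusted p = 4.52e-06). Dusp16 (chromosome 6, 134715468 to 134792625, minus strand) ranged from 54.6 to 61.3 in ESC-ASCs, 41.4 to 61.5 in ESCs, 40.4 to 48.8 in ASCs, 24.4 to 36.7 in AFSCs, 16.1 to 23.9 in EpiLCs and 14.6 to 17.2 in EpiSCs. The 3 groups with high naive markers thus had the 3 highest means of Dusp16. It fell against ESCs in EpiLCs (-1.37 ± 0.190, adjusted p = 5.15e-06) and EpiSCs (-1.81 ± 0.194, adjusted p = 1.27e-07), while in ASCs its log2 fold change was -0.30 ± 0.183 (adjusted p = 0.176) and in ESC-ASCs 0.06 ± 0.180 (adjusted p = 0.8; edgeR, Benjamini-Hochberg). The value of Dusp16 in ASCs passed the adjusted p without ESC replicate 1 (-0.47, adjusted p = 0.0369) and without the 3 replicate 1 libraries (-0.43, adjusted p = 0.0042), still under the limit on the fold.

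The comparison of ASCs with AFSCs, their cells of origin, asked how the family changed on moving from activin A and bFGF to ABCL. Dusp1 and Dusp9 rose, 2 of 10 members where 22.7% of all genes were called higher, and Dusp6 and Dusp14 fell, where 16.7% of all genes were called lower. Dusp14 was 2.75-fold lower in ASCs (-1.46 ± 0.190, adjusted p = 2.22e-06). Of the 6 members not called, Dusp2 (-0.98 ± 0.294, adjusted p = 0.00729), Dusp5 (-0.67 ± 0.171, adjusted p = 0.00212), Dusp10 (-0.64 ± 0.194, adjusted p = 0.00785) and Dusp16 (0.47 ± 0.186, adjusted p = 0.0339; edgeR, Benjamini-Hochberg) had no overlap between the groups. Dusp2 was called lower without ASC replicate 3 (-1.04), and the adjusted p of Dusp16 was 0.157 without AFSC replicate 1.

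ESC-ASCs and ASCs were compared to see whether the origin of the cells left a difference in the same medium. Dusp4 was higher in ESC-ASCs, 1 of 10 members where 8.04% of all genes were called higher, and Dusp1, Dusp5, Dusp9 and Dusp14 were lower, 4 of 10 where 16.5% of all genes were called lower. Dusp6 was 1.72-fold lower in ESC-ASCs (-0.78 ± 0.135, adjusted p = 0.000102; edgeR, Benjamini-Hochberg), with no overlap of samples but under the threshold. Depth and counting run coincide with this comparison.

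The difference between the change from ESCs to ESC-ASCs and the change from AFSCs to ASCs was tested directly as a contrast of the 4 groups. For 4 of 10 members the change on entry from ESCs was the higher (20.8% of all genes were called in this direction) and for 2 it was the lower (24.4%). Dusp4 rose from ESCs by 6.67 and was at -0.74 ± 0.287 from AFSCs, a difference of 7.40 ± 0.566 (adjusted p = 1.78e-09). Dusp6 rose from ESCs by 1.68 and fell from AFSCs by 2.03 on the log2 scale, a difference of 3.71 ± 0.208 (adjusted p = 2.28e-11). The mean level of Dusp6 was 18.8 in ESCs and 59.2 in ESC-ASCs, and 412 in AFSCs and 102 in ASCs. These groups are separate samples, not the same cultures before and after a change of medium. The study describes ESC-ASCs from ESC lines passaged in ABCL, and ASCs from GFP-positive clones that appeared after cells died. Line and selection therefore cannot be told apart from the medium here. Dusp2 (2.07 ± 0.511, adjusted p = 0.00186) and Dusp5 (1.25 ± 0.279, adjusted p = 0.000768) were the other members with a higher change from ESCs. Dusp14 fell from both origins, by 4.37 and 1.46 on the log2 scale, a difference of -2.91 ± 0.277 (adjusted p = 3.52e-08). Dusp10 differed by -1.23 ± 0.266 (adjusted p = 0.000588; edgeR, Benjamini-Hochberg). Dusp9 rose from both origins, and the difference of -0.53 ± 0.331 (adjusted p = 0.176) did not pass. The median of X-linked genes minus that of autosomal genes was -0.745 in this contrast. The part of the X chromosome in the value of Dusp9 was not tested. The difference of Dusp1, -0.87 ± 0.278 (adjusted p = 0.0115; edgeR, Benjamini-Hochberg), was under the threshold, and was called without ESC replicate 1 (-1.14) and without the 3 replicate 1 libraries (-1.05). Dusp7 (-0.45 ± 0.228, adjusted p = 0.0977) and Dusp16 (-0.41 ± 0.258, adjusted p = 0.182) did not pass, and without the 3 replicate 1 libraries they were at -0.64 (adjusted p = 0.00893) and -0.42 (adjusted p = 0.0322), under the limit on the fold.

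**Figure D5:**
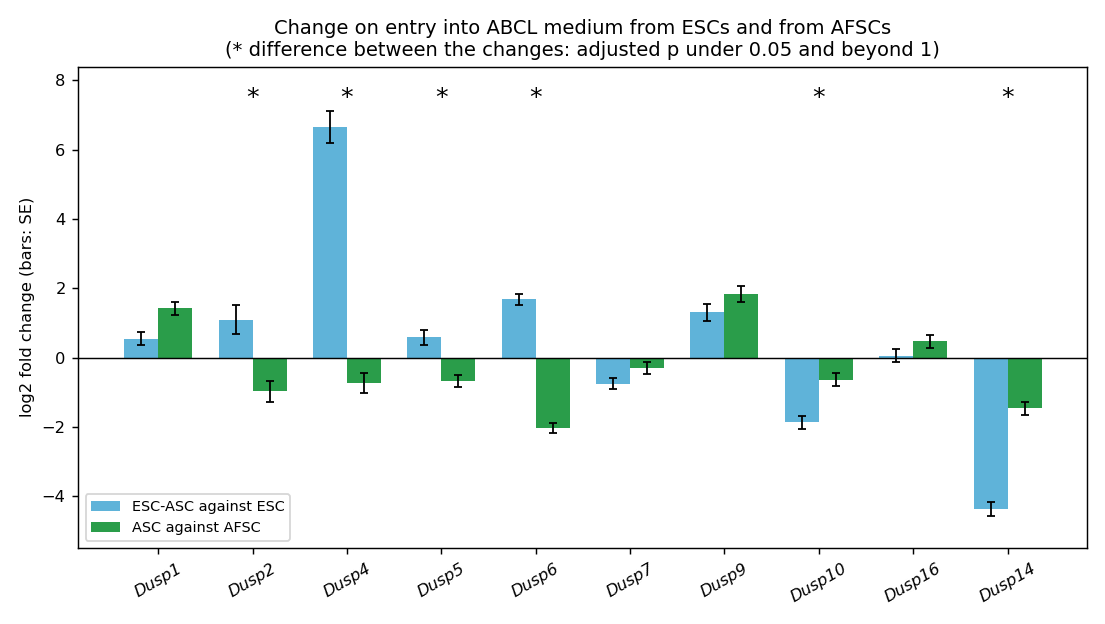
Log2 fold change with SE bars of the 10 members in ESC-ASCs against ESCs (light blue) and in ASCs against AFSCs (green). Stars mark the 6 members whose difference between the changes passed an adjusted p under 0.05 beyond 1, with Dusp4, at 6.67 and -0.74, the farthest apart.

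EpiSCs were compared with EpiLCs and AFSCs, the other groups low in naive markers. Against EpiLCs, 0 of 10 members were called higher (11.9% of all genes) and 4 lower (16.7%), namely Dusp9 (10.5-fold, -3.39 ± 0.248, adjusted p = 1.48e-09), Dusp4, Dusp14 (2.71-fold, -1.44 ± 0.233, adjusted p = 4.2e-05) and Dusp1 (-1.01 ± 0.207, adjusted p = 0.000492). The last lay at the threshold and was no longer called in 9 of 14 alternatives, among them DESeq2 (-0.99), the absence of a filter (-0.97), and the fits without EpiLC replicate 2 (-0.96), EpiLC replicate 3 (-0.99) or EpiSC replicate 1 (-0.93). Against AFSCs, 0 were higher (8.19%) and 5 lower (12.6%): Dusp14 by 11.1-fold (-3.47 ± 0.221, adjusted p = 4.82e-10), Dusp9 by 5.08-fold (-2.35 ± 0.241, adjusted p = 2.89e-07), Dusp4, Dusp1 and, near the threshold, Dusp16 (-1.04 ± 0.195, adjusted p = 0.000283; edgeR, Benjamini-Hochberg). Dusp16 was no longer called without AFSC replicate 2 (-0.93), AFSC replicate 3 (-0.97) or EpiSC replicate 1 (-0.98). DESeq2 also called 0 members higher in both comparisons. Against EpiLCs, 2 members had a positive change under the limit on the fold with no overlap of samples, Dusp5 (0.78 ± 0.178, adjusted p = 0.00114) and Dusp10 (0.96 ± 0.190, adjusted p = 0.000319; edgeR, Benjamini-Hochberg), and the same number had an unadjusted p under 0.05. Against AFSCs, 0 had a positive change at an unadjusted p under 0.05 in edgeR and 1 in DESeq2. The log2 fold change of Dusp7 there was 0.34 ± 0.161 (adjusted p = 0.107), and 0.41 (adjusted p = 0.024) without the 3 replicate 1 libraries. Dusp10 was called higher than in EpiLCs without EpiLC replicate 1 (1.07), EpiLC replicate 3 (1.03) or EpiSC replicate 1 (1.01). It was also called higher without the 3 replicate 1 libraries (1.08). The highest level in EpiSCs was that of Dusp6, at 259 ± 7.56, followed by Dusp5, at 75.3 ± 3.46, and Dusp1, at 72.5 ± 7.52 (SD, n = 3), and the samples of the last 2 overlapped. Dusp2 in EpiSCs was at -0.09 ± 0.272 (adjusted p = 0.8) against EpiLCs and -0.20 ± 0.274 (adjusted p = 0.602) against AFSCs.

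Among 16 genes known to respond to ERK, chosen for that role, 8 were higher and 0 lower in ASCs against ESCs, 5 and 4 in ESC-ASCs, 8 and 1 in EpiLCs, 13 and 0 in AFSCs, and 11 and 2 in EpiSCs. Of all tested genes, 18% to 19.9% were called higher in these comparisons, and 7.26%, 17.1%, 15.9%, 19.6% and 22% were called lower in that order. The median log2 fold change of this list was 1.42, 0.28, 0.98, 2.64 and 1.81 in that order, where that of all genes was between -0.04 and 0.06. Egr1, an immediate early transcription factor, rose by 6.37 ± 0.161 in ASCs (adjusted p = 2.58e-15), while in ESC-ASCs its log2 fold change was 0.63 ± 0.165 (adjusted p = 0.0028) and did not reach the threshold. Outside ABCL, Egr1 also rose against ESCs in EpiLCs (5.85), AFSCs (6.65) and EpiSCs (5.76). Between ESC-ASCs and ASCs, 1 of the 16 was higher (8.04% of all genes) and 8 were lower (16.5%), Egr1 (-5.74 ± 0.146, adjusted p = 2.84e-15) and Myc (-3.43 ± 0.240, adjusted p = 2.3e-09) with the largest changes. Spry4, a Sprouty inhibitor of receptor tyrosine kinase signalling, rose in both ABCL groups against ESCs, by 6.79 ± 0.277 in ASCs (adjusted p = 3.44e-12) and 5.62 ± 0.283 in ESC-ASCs (adjusted p = 1.12e-11), and Spry1 rose in ESC-ASCs by 3.74 ± 0.196 (adjusted p = 1.96e-11; edgeR, Benjamini-Hochberg). Of the other comparisons, 3 of 16 were higher and 6 lower in ASCs against AFSCs (22.7% and 16.7% of all genes), 4 and 4 in EpiSCs against EpiLCs (11.9% and 16.7%), and 0 and 3 in EpiSCs against AFSCs (8.19% and 12.6%), where Ier3 (-2.83) and Fosl1 (-2.09) changed most. Where 0 of the 16 were called in edgeR, DESeq2 called 0 as well, and 1 was lower at an unadjusted p under 0.05 in ASCs and in AFSCs against ESCs and 3 were higher in EpiSCs against AFSCs.

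Of 30 genes of the ERK, JNK and p38 pathways, all of them tested, 4 were higher and 1 lower in ASCs against ESCs, 5 and 4 in ESC-ASCs, 7 and 3 in EpiLCs, 6 and 4 in AFSCs, and 4 and 6 in EpiSCs, with median log2 fold changes of 0.07, 0.16, 0.04, 0.31 and 0.10. These counts are 13.3% to 23.3% of the list called higher and 3.33% to 20% called lower, beside 18% to 19.9% and 7.26% to 22% of all genes. Mapk12, the gene of p38 gamma, rose against ESCs by 5.91 ± 0.347 in EpiLCs (adjusted p = 4.23e-11) and 5.83 ± 0.349 in AFSCs (adjusted p = 3.79e-11). It also rose in EpiSCs (5.20 ± 0.355, adjusted p = 2.04e-10) and ESC-ASCs (2.56 ± 0.407, adjusted p = 2.56e-05). In ASCs its level was 10.3, 6.60 and 9.29, above all ESC samples, at 5.21, 0.616 and 2.95. The ESC values of Mapk12 rest on 5, 1 and 5 counts. Mapk12 was lower in ASCs than in AFSCs (-4.13 ± 0.278, adjusted p = 3.2e-10). Ksr1, a scaffold of the RAF, MEK and ERK cascade, fell against ESCs in ESC-ASCs (-1.91 ± 0.173, adjusted p = 2.25e-08) and in EpiSCs (-2.67 ± 0.190, adjusted p = 3.81e-10). It also fell in EpiLCs (-2.13 ± 0.183, adjusted p = 8.86e-09) and AFSCs (-1.82 ± 0.181, adjusted p = 5.2e-08). Ksr1 was lower in ESC-ASCs than in ASCs (-1.85 ± 0.172, adjusted p = 7.39e-08; edgeR, Benjamini-Hochberg). In ESC-ASCs against ASCs, 1 of 30 was higher (8.04% of all genes) and 2 were lower (16.5%).

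Of 19 other dual-specificity phosphatase genes, 14 were tested. In ASCs against ESCs 4 of these were higher and 0 lower, in ESC-ASCs 5 and 2, in EpiLCs 3 and 2, in AFSCs 5 and 3, and in EpiSCs 4 and 4, with medians between -0.09 and 0.39. These counts are 21.4% to 35.7% of the 14 genes called higher and 0% to 28.6% called lower, beside the same shares of all genes. In ASCs DESeq2 also called 0 lower, and 4 had an unadjusted p under 0.05 with a negative change in edgeR. Dusp22 rose in every group against ESCs, by 2.49 ± 0.425 in ASCs (adjusted p = 9.63e-05) and 4.02 ± 0.380 in AFSCs (adjusted p = 2.53e-08). Its change was 3.33 in ESC-ASCs, 2.28 in EpiLCs and 3.75 in EpiSCs, and its ESC level rests on 2, 3 and 6 counts. Dusp27, whose product lacks an intact catalytic site, fell in AFSCs by 4.47 ± 0.182 (adjusted p = 1.86e-13) and was higher in ASCs than in AFSCs (3.93 ± 0.181, adjusted p = 1.72e-12; edgeR, Benjamini-Hochberg). Dusp27 also fell against ESCs in ESC-ASCs (-3.41), EpiLCs (-2.43) and EpiSCs (-3.90). Its change on entry into ABCL differed between the origins by -7.34 ± 0.239 (adjusted p = 2.07e-14).

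The genes whose log2 levels over the 18 samples were most like those of the 3 members with the widest range were, by Pearson's r, H2-Q2 (0.976), Rassf6 (0.965) and Fgd5 (0.965) for Dusp4, Grhl2 (0.951), Cpm (0.927) and Steap3 (0.910) for Dusp9, and Cacng7 (0.996), Arl4c (0.977) and Tspoap1 (0.974) for Dusp6. Counts of near-identical H2-Q genes share fragments in these tables. Among the members, Dusp2 and Dusp6 were alike with r = 0.945, although Dusp2 rests on few counts. The samples fall into 6 groups, so these values describe the order of groups more than that of replicates.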

How the data were processed

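Total RNA of 18 mouse stem cell samples was enriched for polyA, made into directional paired libraries and sequenced. The authors used TopHat2 against GRCm38 and deposited raw counts of fragments per gene, made with featureCounts 1.5.0-p1 on exons of Ensembl 86 with a minimum overlap of 10 bp, per the file headers. That counting ignored strand and counted fragments that hit several genes or several places each time. No exon of another gene overlaps a member's exons. Groups follow the labels, since the names of the deposited tables use ASC for samples labelled AFSC. No sample was left out, and none of the replicates held identical counts (chi-square per degree of freedom of at least 1.65).

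The 16901 genes that reached 10 counts in 3 or more samples were tested in 1 fit of all samples with edgeR 4.0.16 in R 4.3.3 (TMM, robust quasi-likelihood, two-sided F test, Benjamini-Hochberg adjustment over all genes tested). The SE is the log2 fold change divided by the square root of F. Levels are counts scaled by size factors from DESeq2 1.42.0 and by exonic kb, put on a log2 scale for correlations with a pseudocount of 0.1. Counting intervals are exact and cover counting error only. The script was tested on simulated counts. Motifs were searched in RefSeq windows (GRCm38.p6). All 10 members are named in each comparison, and of each other list the 2 genes with the largest called changes in each direction, of which the text gives some. The 3 genes most like a member were taken for the 3 members with the widest range. Members, lists and tests were chosen with earlier results of these data known. Alternatives were DESeq2, other scalings, no filter, only the compared groups, a replicate block, thinned ESC-ASC counts, each sample left out and, chosen after seeing the data, replicate 1 of ESCs, EpiLCs and AFSCs left out together.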

Additional observations from a re-analysis of the deposited data

Results flagged for a closer look

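The change on entry into ABCL differed between the origins, ESCs and AFSCs, in 6 of 10 members by edgeR's test of the difference itself. The difference was positive in 4 of 10 (20.8% of all genes) and negative in 2 of 10 (24.4%). The same contrast equals AFSCs against ESCs plus ESC-ASCs against ASCs, so it includes the gap between the starting groups. That gap was 5.77 for Dusp4, 4.50 for Dusp6, 2.79 for Dusp2 and 3.40 for Dusp5, and -0.69 for Dusp10 and -0.77 for Dusp14. The log2 difference (ESC-ASC against ESC minus ASC against AFSC) was 7.40 for Dusp4, 3.71 for Dusp6, 2.07 for Dusp2 and 1.25 for Dusp5. It was -1.23 for Dusp10 and -2.91 for Dusp14. For these 6 members it kept its sign and stayed past the threshold on the adjusted p in every alternative run, among them the thinning of ESC-ASC counts, which gave 7.42 for Dusp4 and 1.88 for Dusp2. The ESC-ASC libraries are deeper and were counted in another run, and this cannot be told apart from the origin. No group had 4 or more samples, so single samples were not tested for distance from the others.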

How the results depend on the processing

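Of 100 log2 fold changes of members, 98 kept their sign and their side of the adjusted p threshold with DESeq2, 99 with RLE factors, 99 with autosomal TMM, 95 without the filter, 90 with only the compared groups, 94 with thinned ESC-ASC counts and 89 without the replicate 1 libraries of ESCs, EpiLCs and AFSCs, as did 614 of 660 values with a sample left out. Sign changes were limited to values that did not pass. Dusp16 in ESC-ASCs against ESCs was -0.0047 with thinned counts, -0.0877 without the 3 replicate 1 libraries and -0.1097 to 0.1512 with a sample left out. Dusp7 in ESC-ASCs against ASCs was -0.0037 to 0.1891 with a sample left out. Dusp2 in EpiSCs against EpiLCs was 0.1834 without the 3 libraries and -0.2878 to 0.1924 with a sample left out. The causes were not tested.

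With the adjusted p alone and no limit on the fold change, more genes were called: 8503 in ASCs, 10161 in ESC-ASCs, 9339 in EpiLCs and 10229 in AFSCs against ESCs, 10810 in ASCs against AFSCs, 8567 in ESC-ASCs against ASCs, and 8206 and 6659 in EpiSCs against EpiLCs and AFSCs, and 9 members in AFSCs against ESCs, 9 in ASCs against AFSCs and 8 in EpiSCs against EpiLCs. This follows from the dropped limit. Shares of raw counts without division by length were 13.39% and 51.3% for Dusp9 in ESC-ASCs and ASCs, 25.15% for Dusp14 and 27.59% for Dusp1 in ESCs, so that Dusp14 no longer had the highest mean share there, 34.9% for Dusp1 in ESC-ASCs, and 18.55%, 25.21% and 57.48% for the cytoplasmic ERK phosphatases in ESCs, ESC-ASCs and ASCs.

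Replicate numbers did not pair the samples across all groups: the deviations of same-numbered samples had a mean correlation of 0.0669 (45 pairs, -0.161 to 0.393), and 7 of 18 samples correlated best with a sample of their own number, although 8 of 15 pairs of replicate 1 samples were above 0.1. With the replicate block, 96 of 100 values kept their side. Dusp9 in EpiSCs against ESCs (0.50, adjusted p = 0.0284), Dusp16 in ESC-ASCs against ASCs (0.35, adjusted p = 0.0481) and Dusp16 in EpiSCs against EpiLCs (-0.43, adjusted p = 0.0322) passed the adjusted p, and Dusp10 in EpiSCs against ESCs (-0.42, adjusted p = 0.0561; edgeR) no longer did. Depth limits Dusp2, and Dusp4 in ESCs, to a few counts per sample.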
